A study of Mus musculus with 34 samples.

Results

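Myc, Max and the proteins that compete with Myc for Max form one network of transcription factors, and its 10 genes were followed in J1 mouse embryonic stem cells (mESCs) kept without LIF, with or without Royalactin. The members were taken by name from the deposited expression table, and all 10 were found among its 23366 gene symbols: Myc, Mycn, Mycl1, Max, Mga, Mxd1, Mxd3, Mxd4, Mxi1 and Mnt. All 10 passed the limit for testing (10 normalized counts on average across libraries), as did 12993 genes in all. No member passed through one group alone, since the lowest group mean of any member was 14.7 (Mxd4 with Royalactin).

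RNA-seq was available for 4 libraries of rRNA-depleted total RNA, 2 of serum/-LIF cells and 2 of cells in serum/-LIF + Royalactin. LIF is the cytokine that keeps mESCs from differentiating in serum, and Royalactin is a protein of royal jelly, which was added to the cultures at 0.5 mg/ml. Both groups shared the J1 line, gelatin-coated plates, serum medium and the absence of LIF, and the labels give passage 40 for the cells, while the text of the study gives another passage number. Levels are given as normalized counts, meaning reads divided by a size factor that makes the libraries comparable, and read numbers were recovered from the smallest step between the values of a library. The comparison addresses how mESCs without LIF differ when Royalactin is present. Cultures with LIF were not analysed here.

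Myc, N-Myc (from Mycn) and L-Myc (from Mycl1) bind DNA as dimers with Max at E-boxes, whose best known form reads CACGTG, and raise transcription of genes for growth, ribosome production and metabolism. Mxd1, Mxd3, Mxd4, Mxi1 and Mnt pair with the same Max, bind the same sites and recruit the Sin3-HDAC corepressor. Mga also pairs with Max and is a subunit of PRC1.6, a Polycomb complex that keeps germline genes silent in mESCs. In mESCs Myc is a known target of LIF signalling through Stat3, and Myc and N-Myc can replace one another in keeping the cells undifferentiated.

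E-boxes were looked for in the promoter windows of RefSeq (GRCm38.p6, 250 bases before to 50 bases after the start), a build other than the mm9 of the expression data. The letters searched were CACGTG, which read the same on both strands. Of the 9 members with a window, Max, Mxd4 and Mnt held it, against 8.09% of all 27025 windowed genes. The windows below show the E-box in capitals with 10 bases on each side, in these 3 members and in the 3 germline targets of Mga that both hold an E-box and were selected in the comparison of expression. Distances run from the first base of the E-box to the start, so the E-box of Max, at 3 bases, spans the start.
Max, chr12:76962236-76962261, minus strand, 3 bases before the start: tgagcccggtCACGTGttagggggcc
Mxd4, chr5:34187914-34187939, minus strand, 219 bases before the start: gctgggccacCACGTGctgttgctaa
Mnt, chr11:74830791-74830816, plus strand, 123 bases before the start: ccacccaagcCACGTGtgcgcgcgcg
Stag3, chr5:138280329-138280354, plus strand, 170 bases before the start: cgctggagccCACGTGacaggactgc
Hormad1, chr3:95559610-95559635, plus strand, 57 bases before the start: aagggtgcgcCACGTGccagtgacag
Hormad1, chr3:95559647-95559672, plus strand, 20 bases before the start: gcgcactgcgCACGTGctgaccggag
Sycp3, chr10:88459513-88459538, plus strand, 64 bases before the start: cgttggctccCACGTGagaacgggca
Sycp3, chr10:88459534-88459559, plus strand, 43 bases before the start: gggcatggagCACGTGctaggaggcg

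The E-box was held by 10 of 19 windows of germline targets of Mga (52.6%), 13 of 38 of metabolic targets of Myc (34.2%) and 6 of 29 of nucleolar targets (20.7%). It was held by 1 of 16 windows of cell cycle targets (6.25%) and 1 of 13 of genes repressed by Myc (7.69%). A match is a description of these letters and not a measured binding site.

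**Figure D1:**
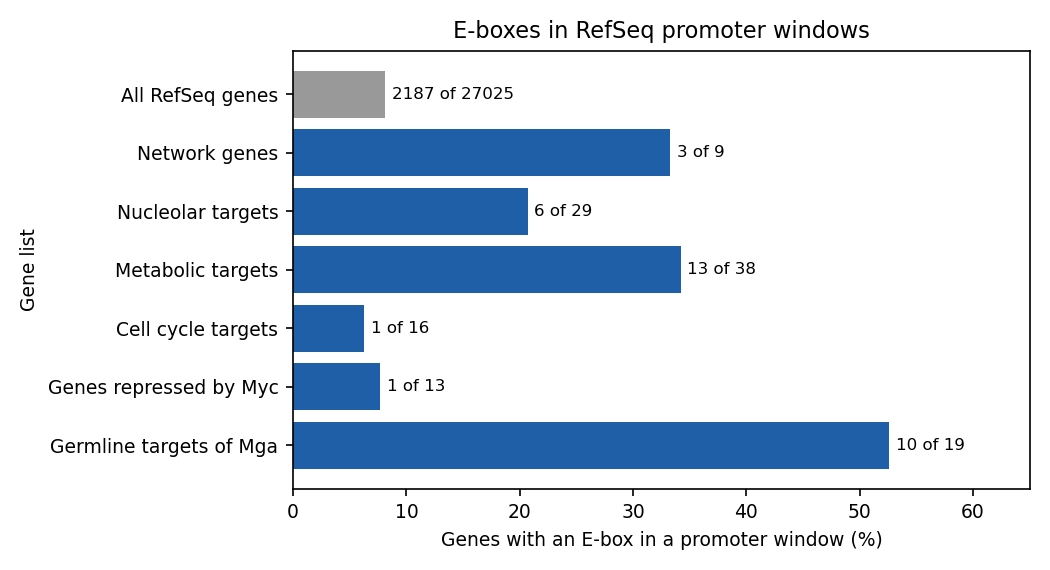
Share of genes (%) whose RefSeq promoter window holds CACGTG, for all windowed genes (grey bar) and for the network genes and 5 lists of targets (blue bars), with the counts beside each bar. The bar of germline targets of Mga reaches 52.6% and that of all genes 8.09%.

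The libraries held 14737796 to 17597818 reads on genes, and the precursor of ribosomal RNA, Rn45s, took between 9.08% and 46.6% of them. Without Rn45s, 7878527 to 15999458 reads remained. Log2 values of the replicates had a Pearson correlation across genes of 0.88 in serum/-LIF and 0.93 with Royalactin. Of 12 mESC markers, 4 rose with Royalactin past the adjusted threshold (Esrrb, Zfp42, Fbxo15 and Sox2). The list had 10 positive and 2 negative log2 fold changes, with a median of 0.89. The negative ones were Tdgf1 (-0.45) and Lin28a (-0.19), each lower in both Royalactin libraries, while Pou5f1, Utf1 and Sall4 overlapped between groups. Summed over all 12 markers, the level was 35424 and 38989 normalized counts in serum/-LIF against 44348 and 51655 with Royalactin. Of 13 fibroblast markers 6 were tested, and Pdgfrb, Postn and S100a4 were at 0 in all libraries. Dcn had 28 and 30 reads in serum/-LIF and 0 in either Royalactin library, Acta2 had 96 and 49 against 9 and 14, and Col5a1 127 and 136 against 82 and 63. The other 3 fibroblast markers tested overlapped between groups, with log2 fold changes of 0.59 for Fbln1, 2.38 for Pdgfra (at 0 in serum/-LIF replicate 2) and -0.02 for Thy1. Nes, a neural progenitor marker, fell by 1.95 on the log2 scale (limma, adjusted p = 0.0166), while Dcx, a marker of young neurons, had 5 and 43 reads against 0 and 0. The other 4 neural markers tested had positive log2 fold changes, of 0.98 for Pax6, 0.68 for Sox1, 0.63 for Tubb3 and 0.20 for Map2, none past a threshold, and the median of the list was 0.42. The summed neural list lay at 2148 and 1737 normalized counts against 1208 and 1353, fibroblast at 713 and 396 against 391 and 436, primitive endoderm at 4421 and 2764 against 3082 and 3044, and mesoderm at 198 and 124 against 193 and 136. Of 7 primitive endoderm markers tested, 4 had positive and 3 negative log2 fold changes. Pdgfra (2.38) and Gata4 (1.55) differed most, while Dab2 (-0.77), Col4a1 (-0.78) and Ttr (-1.29) lay lower in both Royalactin libraries. Among mesoderm markers, Kdr (4.13, on 1 and 0 reads against 31 and 31) and T (-1.05) differed most. None of these passed a threshold. The part of these differences in the results on the network was not tested. In bulk samples fewer cells of a type and less RNA per cell cannot be told apart.

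Across the network, Mycn was the member with the clearest difference. It was 2.21-fold higher with Royalactin, while Myc and Mycl1 lay lower in both Royalactin libraries than in either serum/-LIF library. Max, the shared partner, had overlapping groups. Among the repressors Mga, Mxd3 and Mxi1 lay higher with Royalactin and Mxd4 lower in every library, with Mxd1 and Mnt overlapping.

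By limma on log2(normalized count + 1), 0 of 10 members passed an adjusted p of 0.05 (Benjamini-Hochberg over all tested genes), where 0.493% of tested genes did. A single member, Mycn, had an unadjusted p under 0.05. Under a second rule, an unadjusted p under 0.05 with at least a 2-fold change, 1 of 10 members was selected, where 7.13% of tested genes were (3.52% higher and 3.61% lower with Royalactin). Both Royalactin libraries lay above both serum/-LIF libraries in 4 of 10 members, where 19.7% of tested genes did so, and below both in 3 of 10, where 18.9% did. The median log2 fold change of the members was 0.20, with a range from -1.78 to 1.82, beside -0.01 for all tested genes. Log2 fold changes are Royalactin minus serum/-LIF on the log2(normalized count + 1) scale. The added 1 tends to shrink the change of low genes. Because log2 values are averaged, a low replicate can also make the change larger than the ratio of the group means.

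**Figure D2:**
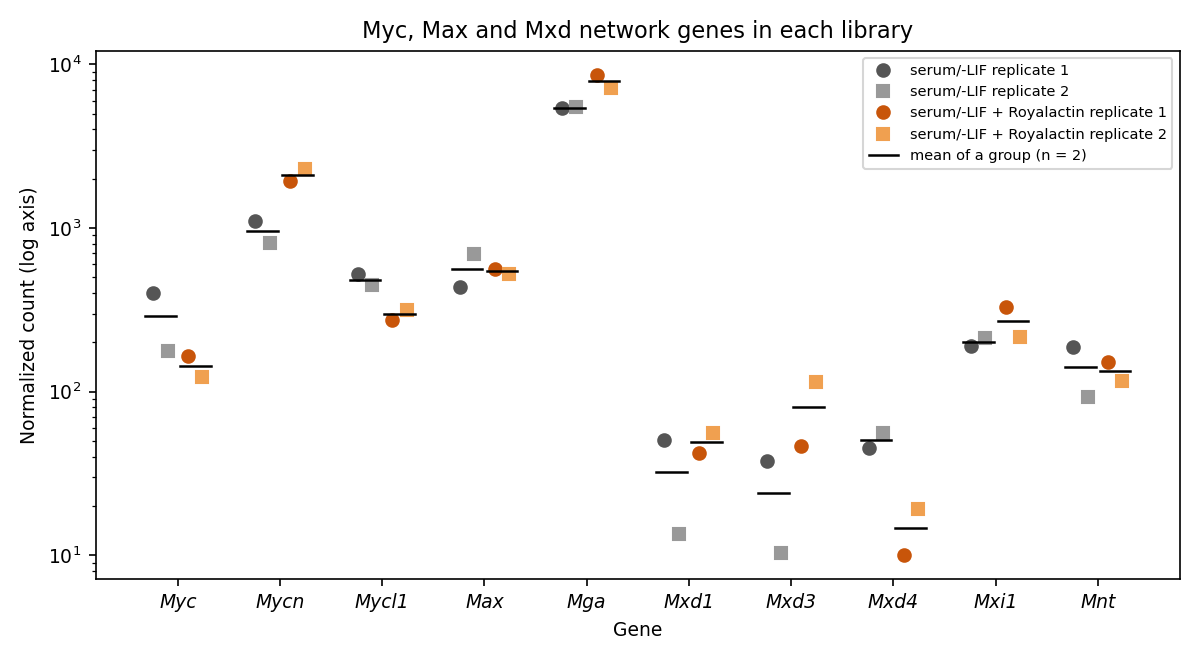
Normalized count (log axis) of each of the 10 network genes in the 4 libraries, grey for serum/-LIF and orange for serum/-LIF + Royalactin, with black lines at the means of 2 libraries. Mycn lies at 1948 and 2282 with Royalactin against 1106 and 807.3 without, and the Max and Mnt groups overlap.

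Among the activators, Mycn had 1106 and 807.3 normalized counts in serum/-LIF and 1948 and 2282 with Royalactin. The groups did not overlap, with means of 957 ± 211 and 2115 ± 236 (SD, n = 2 libraries each). This was a log2 fold change of 1.16 (SE 0.30), with an adjusted p of 0.152 by limma. Mycn passed the second rule in 11 of 12 alternative analyses, the exception being the fit without serum/-LIF replicate 2, where its log2 fold change was 0.93. The gene lies on chr12:12942902-12948720, minus strand, in mm9, and 1.64% of its exon sequence, cut into pieces of 75 bases, also matched elsewhere in the genome.

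Myc, the founding member of the family, had 399.9 and 177.0 normalized counts in serum/-LIF against 164.0 and 122.5 with Royalactin. Serum/-LIF replicate 1 stood far above the other 3 libraries, and replicate 2 was close to the Royalactin libraries. The means were 288 ± 158 and 143 ± 29.3 (SD, n = 2), and the log2 fold change of -0.90 (SE 0.49) had an adjusted p of 0.625 by limma. The size rested on the serum/-LIF libraries, being -0.32 without replicate 1 and -1.49 without replicate 2. In the latter fit, Myc passed the second rule. Serum/-LIF replicate 1 was also the library with the largest share of Rn45s, 46.6%, and the part of this in its Myc level was not tested. Myc lies on chr15:61816946-61821929, plus strand, and none of its exon pieces matched elsewhere.

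Mycl1, the gene of L-Myc, had 520.2 and 445.1 normalized counts in serum/-LIF and 274.6 and 317.3 with Royalactin. The groups did not overlap and the spread within each was small, 483 ± 53.1 against 296 ± 30.2 (SD, n = 2). The log2 fold change was -0.70 (SE 0.36), with an adjusted p of 0.591 by limma. Over all alternative analyses it stayed between -0.82 and -0.59. Mycl1 lies on chr4:122672895-122679728, plus strand.

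Because members are compared with each other only after division by exon length, the makeup of the family was computed from normalized counts per kilobase of exon. Mycn made up 54.9% and 58.3% of the summed level of Myc, Mycn and Mycl1 in serum/-LIF, and 82.2% and 84.9% with Royalactin. Myc made up 24.0% and 15.5% against 8.38% and 5.52%. The share of Mycl1 was 21.1% and 26.2% against 9.44% and 9.62%. None of these shares overlapped between groups, and a share within a library does not depend on how the library was scaled. The ratio of Mycn to Myc per kilobase was 2.28 and 3.76 in serum/-LIF and 9.81 and 15.4 with Royalactin. The summed level of the family was 612 and 421 per kilobase against 720 and 817. With 2 libraries against 2, an exact two-sided permutation test cannot go below p = 0.333, so the shares and ratios are given without a test.

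**Figure D3:**
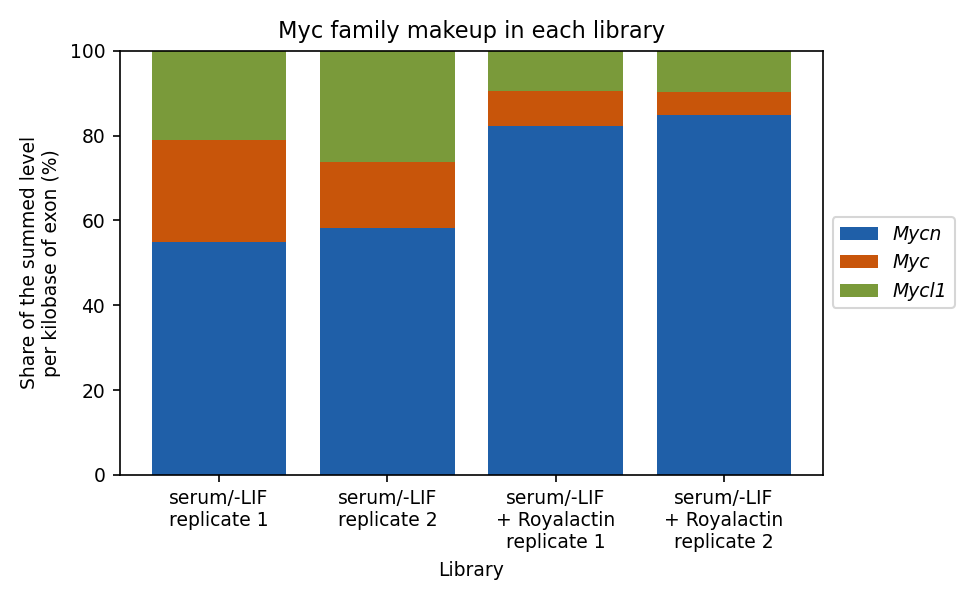
Share (%) of the summed level per kilobase of exon taken by Mycn, Myc and Mycl1 in each of the 4 libraries, as stacked bars that add up to the whole. The Mycn part is 54.9% and 58.3% in the serum/-LIF libraries and 82.2% and 84.9% in the Royalactin libraries.

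The genes whose pattern over the 4 libraries lay nearest to each activator were found among 8877 tested genes with a mean of at least 100, by Euclidean distance of centred log2 values. For Mycn they were Scfd2 (distance 0.10), Hectd3 (0.10) and Atp5sl (0.12). Scfd2 had 94.9 and 65.2 normalized counts in serum/-LIF and 163 and 179 with Royalactin. For Myc they were Wwc1 (0.10), 2210404J11Rik (0.11) and Nfasc (0.12), and Wwc1 shared the high serum/-LIF replicate 1, with 697 normalized counts there and 325, 301 and 208 in the other libraries. For Mycl1 they were Slc27a2 (0.08), Slc6a15 (0.08) and Lrrfip2 (0.10). With 4 libraries such distances describe the samples and nothing more.

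Max, the shared partner of the other members, had 436.0 and 690.4 normalized counts in serum/-LIF and 559.2 and 525.2 with Royalactin. Both Royalactin values lay between the serum/-LIF values. The log2 fold change was -0.02 (SE 0.35), with an adjusted p of 0.993 by limma, and it took either sign when single libraries were left out, from -0.35 to 0.31. Max lies on chr12:78038256-78063235, minus strand, and 5.8% of its exon pieces matched elsewhere, the largest share among the members. Per kilobase, the summed Myc family stood to Max as 2.81 and 1.22 in serum/-LIF and as 2.58 and 3.12 with Royalactin, so this ratio overlapped between groups.

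Mga, the largest gene of the network by exon length (15340 bases, chr2:119722964-119795317, plus strand), had 5380 and 5471 normalized counts in serum/-LIF and 8635 and 7189 with Royalactin. Both Royalactin libraries were higher, at a mean of 7912 ± 1023 against 5426 ± 64.5 (SD, n = 2). The log2 fold change of 0.54 (SE 0.30) had an adjusted p of 0.635 by limma, and stayed between 0.41 and 0.67 over all alternatives. Per kilobase, Mga stood to Max as 1.61 and 1.04 in serum/-LIF and as 2.02 and 1.79 with Royalactin.

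Of the genes of the Mxd repressors, Mxi1 had the highest mean per kilobase in both groups. It had 189.9 and 213.2 normalized counts in serum/-LIF against 326.9 and 216.8 with Royalactin, and the second Royalactin library lay just above the higher serum/-LIF library. The log2 fold change was 0.40 (SE 0.42), with an adjusted p of 0.822, and moved to 0.11 without Royalactin replicate 1 and to 0.70 without Royalactin replicate 2. On chr19:53384996-53450300, plus strand, 194 of its exon bases overlap Gm10197 on the opposite strand, and since the strand setting of the counting is not stated, reads there could belong to either gene.

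Mxd3, an Mxd member known for expression in dividing cells, had 37.4 and 10.4 normalized counts in serum/-LIF and 46.3 and 114.3 with Royalactin. These values rested on 28, 10, 46 and 166 reads, and the replicates of each group lay far apart. On the log2 scale the difference was 1.82 (SE 0.90), with an adjusted p of 0.579 by limma. Leaving out 1 library moved it from 0.94 (without serum/-LIF replicate 2) to 2.70 (without serum/-LIF replicate 1), and in the latter fit it passed the second rule. It lies on chr13:55426529-55431119, minus strand, where 104 exon bases overlap Prelid1 on the other strand.

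Mxd4, a repressor linked to differentiated cells, had 45.5 and 55.9 normalized counts in serum/-LIF and 10.1 and 19.3 with Royalactin. Both Royalactin libraries were lower, on 10 and 28 reads against 34 and 54. On the log2 scale the difference was -1.78 (SE 0.95), with an adjusted p of 0.617 by limma. It stayed negative in every alternative in which Mxd4 was tested, between -2.22 and -1.34. Mxd4 lies on chr5:34516536-34530369, minus strand.

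Mxd1, another repressor of the same family, had 50.8 and 13.5 normalized counts in serum/-LIF against 42.2 and 55.8 with Royalactin. The groups overlapped, and the log2 fold change of 0.86 (SE 0.90) had an adjusted p of 0.825. Mnt, the most widely expressed of the Max-bound repressors, had 188.6 and 93.2 normalized counts against 150.9 and 115.6, so that the Royalactin values lay inside the serum/-LIF range. Its log2 fold change was -0.01 (SE 0.53), with an adjusted p of 0.999. The summed level per kilobase of Mxd1, Mxd3, Mxd4 and Mxi1 was 74.4 and 60.2 in serum/-LIF and 92.1 and 110 with Royalactin. Relative to the summed Myc family it was 0.122 and 0.143 against 0.128 and 0.135, and the Royalactin ratios lay inside the serum/-LIF range.

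**Figure D4:**
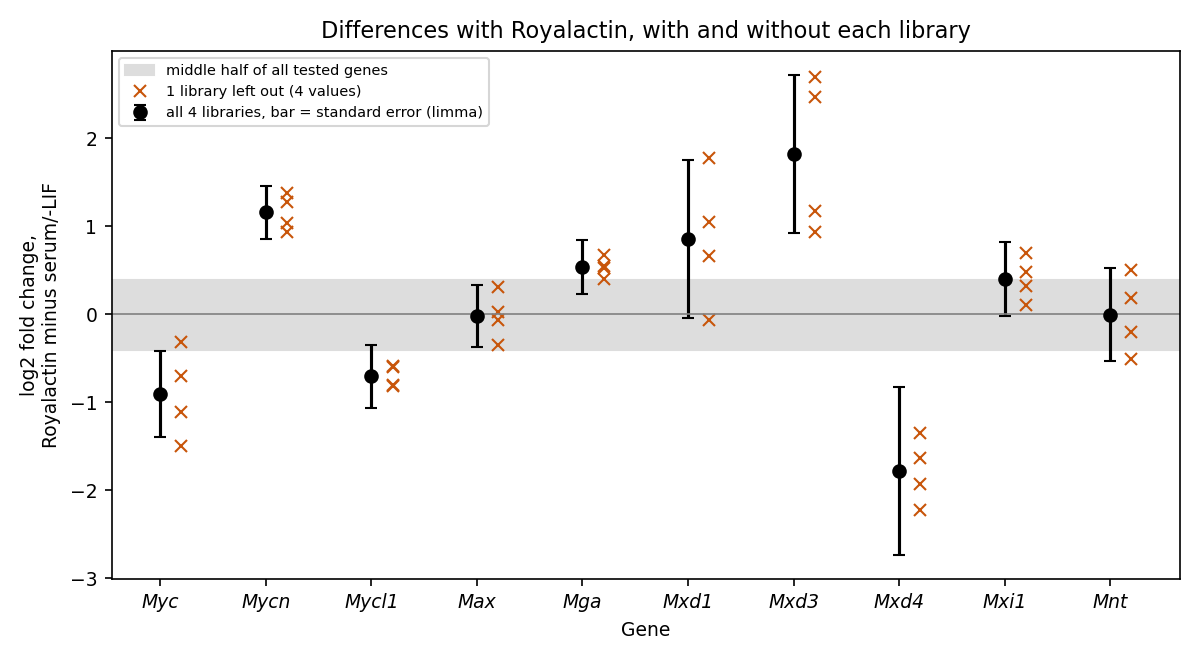
Log2 fold change (Royalactin minus serum/-LIF) of each member from all 4 libraries (black points, bars are limma standard errors) and from the fits that leave out 1 library (orange crosses), over a grey band that holds the middle 50% of all tested genes. Max, Mxd1 and Mnt take either sign, and the crosses of Myc run from -1.49 to -0.32.

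Ordered by level per kilobase of exon, Mga led in serum/-LIF at 354 ± 4.20 (SD, n = 2), followed by Mycn at 291 ± 64.1, Max at 281 ± 89.7, Mycl1 at 120 ± 13.2 and Myc at 106 ± 58.0. The repressors followed with Mxi1 at 35.9 ± 2.93, Mnt at 30.4 ± 14.6, Mxd4 at 13.1 ± 1.90, Mxd3 at 11.5 ± 9.21 and Mxd1 at 6.89 ± 5.67. Libraries overlapped between the neighbours Mycn and Max, Mycl1 and Myc, Mxi1 and Mnt, Mxd4 and Mxd3, and Mxd3 and Mxd1. With Royalactin the order began with Mycn at 642 ± 71.6, Mga at 516 ± 66.7, Max at 270 ± 12.0, Mycl1 at 73.3 ± 7.48 and Myc at 52.7 ± 10.8. It went on with Mxi1 at 48.4 ± 13.9, Mxd3 at 38.6 ± 23.1, Mnt at 28.8 ± 5.38, Mxd1 at 10.5 ± 2.05 and Mxd4 at 3.78 ± 1.68. Here libraries overlapped between the neighbours Myc and Mxi1, Mxi1 and Mxd3, and Mxd3 and Mnt. Mycn and Mga had changed places at the top, while Max held the third place in both groups.

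The wider network was described from lists of partners and targets, none of which held a gene past the adjusted threshold. Their medians moved when single libraries were left out, and those of 6 of the 11 lists took the other sign in at least 1 such fit. Of the 6 other genes of the network, which include Mlx, the partner of the glucose-sensing factors, 5 were tested and none was selected by the second rule. Bmyc, a Myc relative without a DNA-binding domain, had 36.1 and 122 normalized counts in serum/-LIF and 15.1 and 34.4 with Royalactin. Mlxipl, the carbohydrate response factor, had 32 and 0 reads in serum/-LIF against 26 and 29 reads with Royalactin, so its groups overlapped and its fitted log2 fold change of 1.85 rests on the library at 0.

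Of the 12 other subunits of PRC1.6, the complex that holds Mga, none was selected, with 6 positive and 6 negative log2 fold changes and a median of 0.07. Yaf2, which binds the RING subunits, had 237 and 539 normalized counts in serum/-LIF and 158 and 202 with Royalactin, and its log2 fold change fell just short of the 2-fold limit. L3mbtl2, a chromatin-binding subunit, had 1529 and 739 against 1477 and 1640. Of 15 Sin3-HDAC subunits none was selected and the median was 0.14. Sin3a, the scaffold bound by the Mxd proteins, had 2021 and 1313 normalized counts against 2985 and 1991. Brms1l, another subunit, had 241 and 358 against 391 and 374.

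Of 13 coactivators of Myc, none was selected and the median log2 fold change was 0.21. The largest values were 0.38 for Supt5, an elongation factor, and 0.37 for Ruvbl1, a helicase of chromatin complexes. Of 12 genes that control the turnover of Myc proteins, 1 was selected, where 7.13% of all tested genes were, and the median log2 fold change was 0.15. Both Royalactin libraries lay above both serum/-LIF libraries in 5 of the 12 and below both in 1. Of all tested genes 19.7% and 18.9% did so. Usp28, a deubiquitinase known to stabilise Myc, had 1097 and 825 normalized counts in serum/-LIF and 2348 and 1809 with Royalactin. Both Royalactin libraries were higher, and the log2 fold change of 1.11 (SE 0.31) had an adjusted p of 0.182 by limma. Skp2, an F-box protein that ubiquitinates Myc, had 769 and 726 normalized counts against 1120 and 1112, a log2 fold change of 0.58.

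Of 35 nucleolar targets of Myc none was selected, 19 had a positive and 16 a negative log2 fold change, and the median was 0.05. Ubtf and Rrn3, both factors of RNA polymerase I, had the largest values. Rrn3 had 3061 and 2729 normalized counts in serum/-LIF and 4706 and 5269 with Royalactin, a log2 fold change of 0.78, and Ubtf had a log2 fold change of 0.81. Of 42 metabolic targets none was selected, and the median was -0.07. Phgdh, the first enzyme of serine synthesis, had 2279 and 2426 normalized counts against 966 and 1567, a log2 fold change of -0.93. Tert, the catalytic subunit of telomerase, had 142 and 218 against 71.4 and 110, a log2 fold change of -0.98.

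Of 20 cell cycle targets none was selected, 15 had a positive log2 fold change and the median was 0.24. In 8 of the 20 both Royalactin libraries lay above both serum/-LIF libraries, where 19.7% of all tested genes did. In 1 of the 20 they lay below both, where 18.9% did. Ccne1, the G1/S cyclin, had 1479 and 1134 normalized counts against 2110 and 2320, a log2 fold change of 0.77. Id2, an inhibitor of bHLH factors, had 464 and 720 against 366 and 275, a log2 fold change of -0.86. Of 12 genes of mitosis and replication none was selected and the median was -0.04, with the largest values being -0.49 for Cdk1, the mitotic kinase, and 0.31 for Aurkb, a kinase of the chromosomal passenger complex.

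Of the 17 genes listed as repressed by Myc, 15 were tested. Of these, 1 was selected as higher and 3 as lower (3.52% and 3.61% of all tested genes were). The median log2 fold change was -0.21, with 6 positive and 9 negative values. Both Royalactin libraries lay above both serum/-LIF libraries in 3 of the 15 and below both in 7. Of all tested genes 19.7% and 18.9% did so. Txnip, an inhibitor of glucose uptake, had 1016 and 665 normalized counts in serum/-LIF and 1887 and 1969 with Royalactin, a log2 fold change of 1.23 (SE 0.31) with an adjusted p of 0.142 by limma. Gadd45b, a stress and growth arrest gene, lay on the other side, with 235 and 215 normalized counts against 34.2 and 97.1. Ddit3, a factor of the unfolded protein response, had 90.9 and 85.9 against 17.1 and 28.9. Gas1, a growth arrest gene, had 85.6 and 77.6 against 21.1 and 29.6. The genes selected thus lay on both sides, 1 higher and 3 lower. Gadd45b and Ddit3 are known to respond to stress as well as to Myc, and the part of either in these differences was not tested.

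Of 21 germline genes listed as targets of Mga and PRC1.6, 18 were tested, 5 with positive and 13 with negative log2 fold changes. The median was -0.31. By the second rule 2 were selected as higher and 2 as lower (3.52% and 3.61% of all tested genes were). Hormad1, a protein of meiotic chromosome axes, had 120 and 340 normalized counts in serum/-LIF and 476 and 509 with Royalactin, a log2 fold change of 1.28. Stag3, the meiotic cohesin subunit, had 136 and 118 against 272 and 330, a log2 fold change of 1.23. Sycp3, another axis protein, had 203 and 615 against 136 and 132, a log2 fold change of -1.39. Tdrkh, a piRNA pathway protein, had 52 and 114 reads against 0 and 59. Stag3, Hormad1 and Sycp3, whose promoter windows hold the E-boxes printed above, differed in both directions, but their windows were printed because these genes were selected. The other germline targets with an E-box had log2 fold changes of -0.34 for Ddx4, -0.47 for Sycp1 and -0.71 for Taf7l. The values were -0.69 for Mael, -0.21 for Slc25a31, -0.29 for Brdt and 0.21 for Mov10l1. The adjusted p of each selected gene of this list was above 0.05 by limma.

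**Figure D5:**
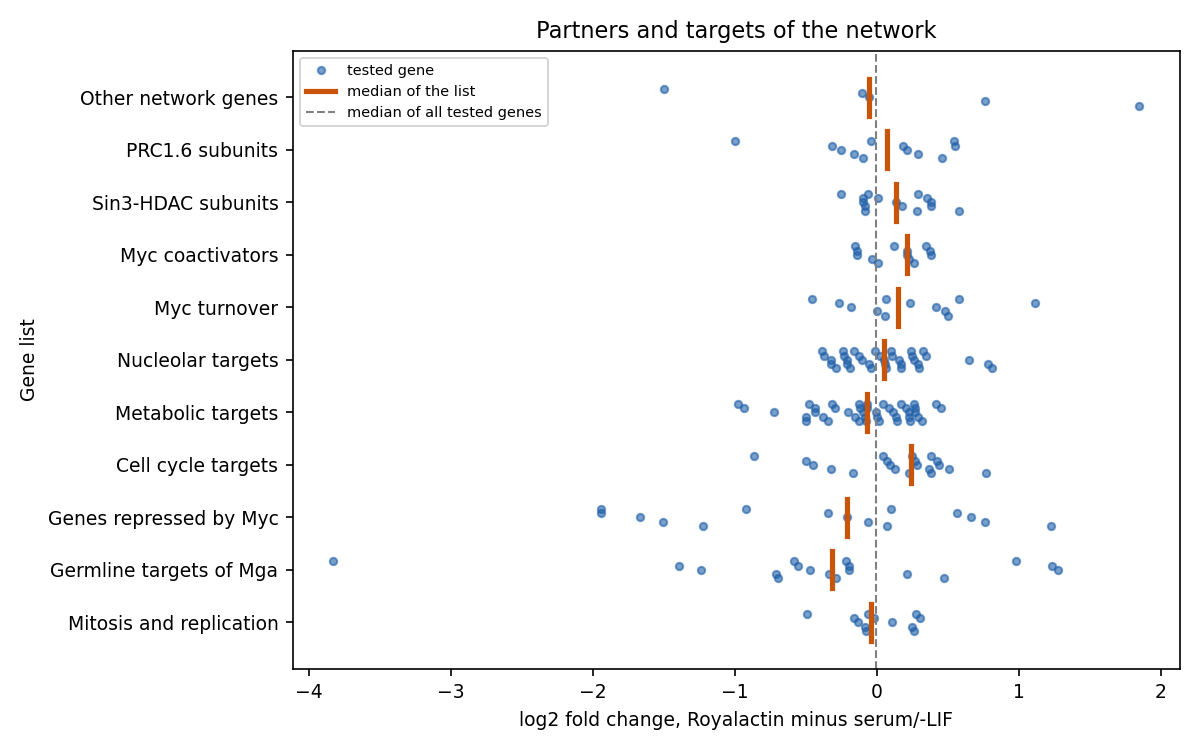
Log2 fold change (Royalactin minus serum/-LIF) of every tested gene of 11 lists of partners and targets of the network (blue points), with the median of each list (orange line) and that of all tested genes (dashed line, -0.01). The list medians lie between -0.31 for germline targets of Mga and 0.24 for cell cycle targets.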

How the data were processed

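The authors aligned rRNA-depleted single-end reads to mm9 with Tophat, allowing 2 mismatches. Reads per gene came from HTSeq-count, and the authors deposited normalized counts, a signal proportional to reads, which were assumed to be normalized by DESeq. Annotation and strand setting are not given in the sources used here. All deposited values were whole multiples of 1 step per library within 0.01 of a read, from which reads were derived. One step was too near 1 to test this independently, so no count model was used. The 30 ATAC-seq samples were not analysed here.

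The 2 and 2 libraries were compared by limma 3.58.1 (R 4.3.3) after a log2 transform with a pseudocount of 1 (trended variance, two-sided, Benjamini-Hochberg) for genes with a mean of at least 10. The second rule, p under 0.05 without adjustment and at least 2-fold, takes its limits from the study's methods, where they were applied to p-values of DESeq, and applies them to the p-values of limma. Libraries are labelled as replicates. The p-values rest on the spread between them, which limma combined with the spread of other genes at a similar level. For Mxd4 the SE was 0.95 with the trend and 0.45 without it.

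Members and lists were chosen with earlier results of these data known. All members are named. In each list, selected genes were named (up to 4 per direction), and otherwise the largest log2 fold changes until 2 were named. The remaining tested fibroblast and neural markers, and some mESC and primitive endoderm markers, were added after their values were seen. Positions and exon lengths come from GENCODE M1 (mm9), and exon pieces of 75 bases were mapped with minimap2 2.31-r1302. Alternatives were pseudocounts of 0.1 and 5, a mean of at least 50, every gene above 0, other scalings, no trend, a replicate block and each library left out. Of these steps, only the limma fit was tested on simulated data.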

Additional observations from a re-analysis of the deposited data

How the results depend on the processing

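Against 64 genes called over all tested, 32 were called with a pseudocount of 0.1, 99 at a mean of at least 50, 34 over every gene above 0, 0 without the trend (1135 at an unadjusted p under 0.05), 391 with the replicate number as a block and 0 to 60 with single libraries left out. The 0 arose without serum/-LIF replicate 1 (2518 at an unadjusted p under 0.05) and without Royalactin replicate 2 (547), all by limma. The second rule selected 927 genes, and 519 to 1963 with libraries left out. With the replicate block 1 member was called (Mycn, log2 fold change 1.16, adjusted p 0.00414 by limma) and 2 were selected (Mycn and Mxd3). The labels do not tie the replicate numbers to a shared culture or day. With 2 pairs the same-numbered deviations had a correlation of 0.09 across genes, both replicate 1 libraries had more Rn45s (46.6% and 38.4%) than both replicate 2 libraries (21.6% and 9.08%), and whether the numbers pair the samples was not settled. Without the trend 2 members were selected (Mycn and Mxd4), and 1 to 2 with libraries left out. Scaling to the library total without Rn45s turned Max to 0.038 and Mnt to 0.049. Leaving out libraries gave -0.35 to 0.31 for Max, -0.51 to 0.50 for Mnt and -0.065 to 1.78 for Mxd1. The median of cell cycle targets was 0.29 under that scaling and 0.12 to 0.33 with libraries left out. Other medians with libraries left out were -0.14 to 0.12 for nucleolar targets, -0.13 to 0.079 for metabolic targets and -0.45 to -0.080 for genes repressed by Myc. They were -0.41 to 0.29 for other network genes, -0.036 to 0.14 for PRC1.6, 0.012 to 0.27 for Sin3-HDAC, 0.0058 to 0.34 for coactivators, -0.12 to 0.40 for turnover, -0.56 to -0.094 for germline targets and 0.027 to 0.15 for mitosis and replication, against -0.04 with all libraries. The cause of these moves was not tested. Myc, Mycn, Mycl1, Mga, Mxd3, Mxd4 and Mxi1 kept their direction under every alternative in which they were tested. Mxd1 and Mxd4 were not tested at a mean of at least 50. Their low read numbers, and those of Mxd3, limit the precision of these genes, and read numbers cover counting error only.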
